A study of Mus musculus with 6 samples.

Results

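A set of 9 genes that act against viruses inside cells was followed here in Treg cells of the mouse, the regulatory CD4 T cells that express Foxp3 and hold back immune responses. They are Rsad2, Samhd1, Apobec3, Mx1, Mx2, Zbp1, Bst2, Ifi27l2a and Rtp4, 9 of the 23992 gene symbols in the count table. They were chosen by name, and for each symbol the transcript row with the highest summed count over the 6 libraries was kept. All 9 were found and all 9 passed the filter on low counts. The choice of rows used only the summed counts, but the set was put together with earlier results of these libraries known, so that its members share a direction is a description.

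RNA was sequenced from 2 groups of 3 libraries. Per the series design, Treg cells were sorted as live CD4+YFP+ cells of CD45.2 mice. The mice were male (Foxp3YFP-Cre/Y), and both groups carry the YFP-Cre fusion allele at the X-linked Foxp3 gene, which limits the deletion to cells that express Foxp3. WT stands for Foxp3YFP-Cre/Y and KO for Foxp3YFP-Cre/Y Crlf2fl/fl, in which Crlf2, which encodes the TSLP-specific chain of the TSLP receptor, is floxed. Age, any treatment of the mice and whether the 3 libraries of a group came from separate mice are not given in the labels. The p-values therefore set the difference between the groups against the spread between these samples, which may be technical. The tissue is labelled spleen and lymph node, while the name of the deposited table mentions lung. Going by the series title, the study asked whether TSLP acts on Treg cells to maintain their identity.

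Interferons bind receptors at the cell surface, which activate the kinases JAK1 and TYK2 and transcription factors such as STAT2 and IRF9. These factors bind a DNA element, the interferon-stimulated response element (ISRE), in front of a large set of genes. Many of those genes encode proteins that block a step of viral replication, called restriction factors when they act directly on the virus. T cells express a low level of them without infection.

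Proximal promoters of Rsad2 and Bst2, and 1 of the 2 of Apobec3, carry the core letters of the ISRE. They are shown because they hold these letters, and the promoter of Samhd1, which also fell in KO, does not. RefSeq promoter windows (250 bases before to 50 after a start site, GRCm38.p6) matched 4 of the 9 genes by symbol, Samhd1 being the fourth. The letters GAAANNGAAA were searched on both strands (TTTCNNTTTC on the other), and they occur in 3.44% of the 32851 promoter windows of that table. These 4 genes have 5 windows, Apobec3 having 2, and the letters were found in 3 of the 4 genes, for Apobec3 in 1 of its 2 windows. Capitals mark the matching letters, each sequence is written 5′ to 3′ on the strand of its gene, and a match is a description of letters and not of binding.
Rsad2, chr12:26456538-26456597, minus strand: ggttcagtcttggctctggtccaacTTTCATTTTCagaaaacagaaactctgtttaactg
Bst2, chr8:71537562-71537621, minus strand: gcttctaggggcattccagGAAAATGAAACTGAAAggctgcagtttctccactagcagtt
Apobec3, chr15:79892243-79892302, plus strand: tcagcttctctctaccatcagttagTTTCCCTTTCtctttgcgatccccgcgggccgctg
The Rsad2 match covers bases -120 to -111 from the start site and the Apobec3 match bases -140 to -131. Bst2 has 2 overlapping matches, at -130 to -121 and -124 to -115. The interferon-gamma type element TTCNNNGAA, which reads the same on both strands and is present in 8.30% of windows, was found in Bst2 (-136 to -128, where it overlaps the first ISRE match) and in Samhd1 (-235 to -227). The kB letters GGGANNTTCC (GGAANNTCCC on the other strand, 1.47% of windows) were found in 0 of the 5 windows. Among the genes called lower in KO that are not members and have a promoter in the table, 24 of 95 hold the ISRE letters (25.3%), against 359 of 9419 tested genes (3.81%). The other letters were also more frequent there, TTCNNNGAA in 15 of 95 (15.8%) against 8.45% of tested genes and the kB letters in 7 of 95 (7.37%) against 1.77%, and no test was made of these shares.

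The libraries differed in depth and in traces of other cells. Crlf2 was at 92.8, 146 and 105 CPM (read counts scaled to library size) in WT replicates 1 to 3 and at 9.06, 6.72 and 3.55 CPM in KO replicates 1 to 3. The groups were taken from titles and genotype tags, which this direction follows, whereas the sample descriptions name the strains the other way round. The Treg markers Foxp3, Il2ra, Ctla4 and Ikzf2 and the T cell markers Cd4 and Cd3e were detected in every library, with 5 of the 6 libraries at 386 to 489 CPM of Foxp3 and WT replicate 3 at 200.1 CPM. WT replicate 3 also had the highest share of erythroid markers (7 of 7 genes in the table, 9.88% of its counts against 0.117% to 0.468% in the other 5 libraries, with near-identical globin genes each counted). Its share of macrophage and monocyte markers was 0.712%, against 0.0373% and 0.0772% in the other WT libraries and 0.258% to 0.279% in KO. Markers of neutrophils (5 of 6 in the table), B cells (6 of 6) and NK cells (4 of 4) were also highest in WT replicate 3, at 0.0288%, 0.0299% and 0.00838% of its counts. The neutrophil share was higher in every WT library (0.00192%, 0.00257% and 0.0288% in WT replicates 1 to 3) than in KO (0.000855% to 0.00166%), as the 9 genes were, while the B cell and NK cell shares overlapped between the groups. Retnlg and S100a9 were the most abundant neutrophil markers, with 24 and 11 reads in WT replicate 2, and their groups did not overlap. S100a8, named after its values were seen, overlapped between the groups. It was at 3.21, 1.37 and 44.0 CPM in WT replicates 1 to 3 and at 2.40 to 3.51 CPM in KO. Camp and Ngp were at 0 outside WT replicate 3, and the part of these cells in the results was not tested. WT replicate 2 was the shallowest library, with 1439736 counts.

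All 9 genes were lower in KO than in WT. By edgeR's test across all genes 8 of the 9 were called lower (adjusted p under 0.05) and 0 higher, with all 9 at an unadjusted p under 0.05; Mx2 was not called. Over all 12720 tested genes 0.983% were called lower and 0.755% higher, 1.74% in either direction, and 9.13% were lower at an unadjusted p under 0.05. For each of the 9 genes every KO library lay below every WT library, which held for 11.5% of all tested genes in that direction. The median log2 fold change of the 9 genes was -2.28, against -0.04 for all tested genes. The size ranged from a 2.19-fold lower mean for Samhd1 to a 9.86-fold lower mean for Mx1. In libraries of bulk RNA, fewer cells expressing a gene and less RNA per cell cannot be told apart.

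**Figure D1:**
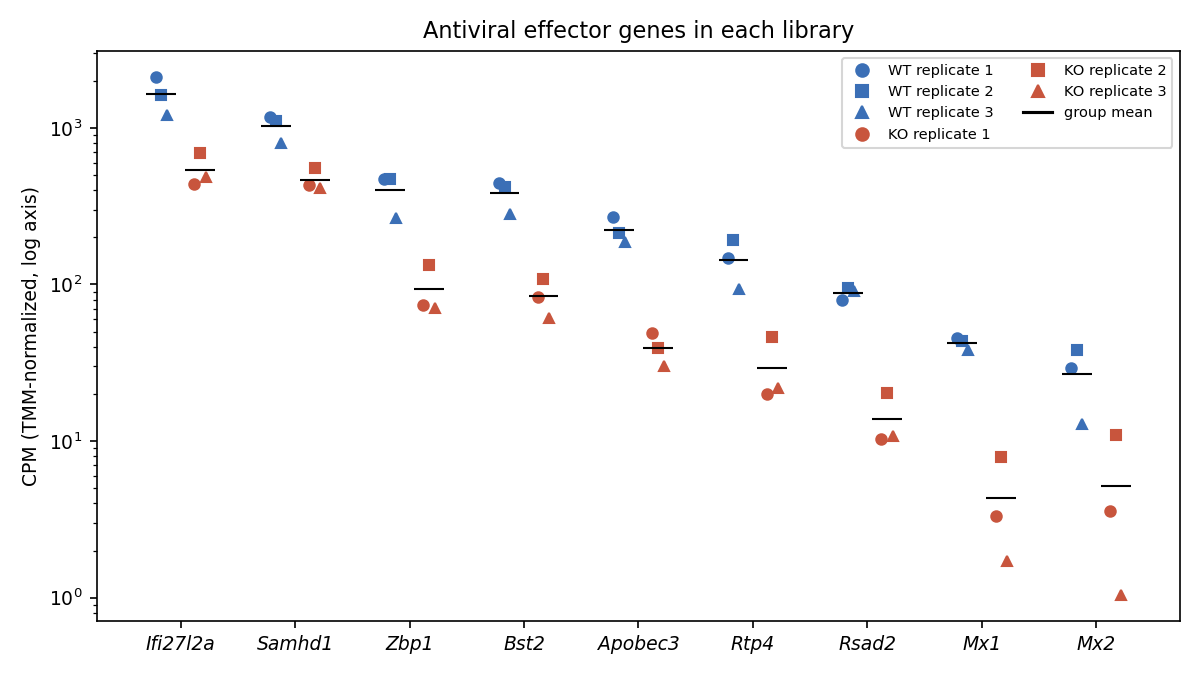
CPM (log axis) of the 9 genes in each of the 6 libraries, ordered by the WT mean; blue symbols are WT, red symbols KO, the shape gives the replicate and black lines are group means (n = 3). Every red symbol lies under every blue symbol of its gene, and the narrowest gap is that of Mx2.

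Rsad2, Samhd1 and Apobec3 encode enzymes that act on nucleotides or nucleic acids. Rsad2 (viperin) is a radical SAM enzyme that makes a chain-terminating nucleotide from CTP. On mm10 it occupies bases 26442746 to 26456452 of chromosome 12 (minus strand, protein coding), 12752 bases from Cmpk2, a nucleotide kinase gene that is induced with it. Rsad2 stood at 79.3, 95.1 and 90.9 CPM in WT replicates 1 to 3 and at 10.3, 20.3 and 10.7 CPM in KO replicates 1 to 3. The WT libraries were close together, and the highest KO library was 3.92-fold under the lowest WT library. The fall was -2.68 on the log2 scale (SE 0.28 and adjusted p = 0.0092 by edgeR), from 88.4 ± 8.19 to 13.8 ± 5.63 CPM (SD, n = 3 each). Its neighbour Cmpk2, named here for its position, was at 134 ± 40.6 CPM in WT against 31.1 ± 18.3 CPM in KO (SD, n = 3 each) and was not called (log2 fold change -2.11, SE 0.45 and adjusted p = 0.0785 by edgeR).

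Samhd1 encodes a hydrolase that lowers the pool of deoxynucleotides needed for reverse transcription, and is expressed in resting lymphocytes also without interferon. It lies on chromosome 2 (157097533 to 157135265, minus strand, protein coding). Its values were 1169, 1111 and 800.3 CPM in WT replicates 1 to 3 and 434, 554 and 416 CPM in KO replicates 1 to 3. The groups were apart by 1.44-fold between the lowest WT and the highest KO library. Samhd1 fell by 1.13 on the log2 scale (SE 0.18 and adjusted p = 0.0263 by edgeR), the smallest change of the 9 genes. Genes that make deoxynucleotides, listed as its counterparts, were not called: Rrm1 and Rrm2, subunits of ribonucleotide reductase, had log2 fold changes of -0.59 (SE 0.16) and -0.75 (SE 0.26), and Rrm2b and Dck, the alternative small subunit and deoxycytidine kinase, had -0.27 (SE 0.30) and -0.09 (SE 0.22). Rrm1 and Rrm2 were lower in KO at an unadjusted p under 0.05 by edgeR, and of these genes only Rrm1 had groups that did not overlap.

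Apobec3 encodes a cytidine deaminase that mutates retroviral DNA; mice have this single gene where primates have several. It lies on chromosome 15 (79891659 to 79915906, plus strand, protein coding). Its last part overlaps Cbx7 on the opposite strand, and D730005E14Rik, a non-coding RNA on the same strand, overlaps exons at its start, so reads there may belong to either gene. Apobec3 was at 269, 212 and 187 CPM in WT replicates 1 to 3 and at 48.7, 39.1 and 30.2 CPM in KO replicates 1 to 3. Both groups were tight, and the lowest WT library was 3.84-fold over the highest KO library. The log2 fold change was -2.51 (SE 0.22 and adjusted p = 0.0047 by edgeR), the sixth smallest p of all tested genes. Of its relatives, Apobec1, an RNA-editing deaminase, was at 19.0 ± 12.5 CPM in WT against 14.8 ± 4.19 CPM in KO (SD, n = 3 each), and Apobec2 at 9.28 ± 1.66 and 3.48 ± 0.540 CPM (log2 fold change -1.42, SE 0.41 and adjusted p = 0.139 by edgeR).

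Mx1 and Mx2 encode dynamin-like GTPases that trap viral nucleoproteins and are standard reporters of interferon, since resting cells hardly express them. Many laboratory strains carry defective alleles of both, and GENCODE annotates Mx2 as a polymorphic pseudogene. The strain background is not in the labels, so RNA levels here say nothing of protein. The genes are neighbours on chromosome 16 (Mx1 at 97447035 to 97462907, minus strand, protein coding; Mx2 at 97535308 to 97560900, plus strand). Mx1 was at 45.6, 43.8 and 38.3 CPM in WT replicates 1 to 3 and at 3.31, 7.92 and 1.72 CPM in KO replicates 1 to 3, the latter from 34, 99 and 33 reads. WT libraries differed from one another by no more than 1.19-fold, KO libraries by 4.60-fold, and the gap between the groups was 4.83-fold. Mx1 fell by 3.31 on the log2 scale (SE 0.51 and adjusted p = 0.0263 by edgeR), from 42.6 ± 3.80 to 4.32 ± 3.22 CPM (SD, n = 3 each).

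Among the 9 genes, Mx2 spread most within both groups. Its values were 29.2, 38.3 and 12.9 CPM in WT replicates 1 to 3, and 3.60, 10.9 and 1.04 CPM in KO replicates 1 to 3 (37, 136 and 20 reads). KO replicate 2 nearly reached WT replicate 3, the gap being 1.18-fold, and the KO libraries spread over 10.4-fold. Mx2 was not called by edgeR, at a log2 fold change of -2.35 (SE 0.82), adjusted p = 0.224 and unadjusted p = 0.0227. Of the cellular dynamin genes, Dnm2 and Dnm1l were not called and had log2 fold changes of -0.08 (SE 0.11) and -0.29 (SE 0.18).

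Zbp1 encodes a sensor of Z-form nucleic acids that can start necroptosis through RIPK3 and MLKL. The gene lies on chromosome 2 (173206612 to 173218923, minus strand, protein coding). It stood at 469.5, 469.4 and 264 CPM in WT replicates 1 to 3 and at 74.4, 133 and 71.1 CPM in KO replicates 1 to 3. WT replicate 3 and KO replicate 2 came nearest to each other, 1.98-fold apart. Zbp1 fell by 2.11 on the log2 scale (SE 0.32 and adjusted p = 0.0295 by edgeR). Its signalling partners were not called: Ripk3 was at 108 ± 21.1 CPM in WT against 137 ± 36.4 CPM in KO, Ripk1 at 41.5 ± 8.53 and 38.1 ± 3.30 CPM, Fadd at 26.6 ± 7.44 and 25.9 ± 1.30 CPM, and Mlkl at 5.69 ± 3.28 and 2.77 ± 1.12 CPM (SD, n = 3 each). Casp8, the protease that holds this pathway in check, was at 135 to 185 CPM in WT and 93.0 to 104 CPM in KO, a log2 fold change of -0.67 with SE 0.15 and adjusted p = 0.0709 by edgeR.

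The other three encode membrane-associated proteins. Bst2 (tetherin) holds budding virions at the cell surface and is also a surface marker of plasmacytoid dendritic cells in mice. It lies on chromosome 8 (71534255 to 71537456, minus strand, protein coding). Bst2 was at 444, 421 and 281 CPM in WT replicates 1 to 3 and at 83.5, 109 and 61.1 CPM in KO replicates 1 to 3. The groups were 2.59-fold apart at their nearest libraries, and the fold change on the log2 scale was -2.18 (SE 0.25 and adjusted p = 0.0119 by edgeR). All 8 markers of plasmacytoid dendritic cells were in the table, and together their share was 0.0100% to 0.0270% in WT libraries and 0.0128% to 0.0150% in KO libraries, a sum that overlapped between the groups and to which Runx2 and Pacsin1 gave the most reads. None was at 0 in every library. Runx2 and Pacsin1 are also expressed in other cells, and Siglech, a defining marker named after its values were seen, was at 5.62, 2.74 and 13.5 CPM in WT replicates 1 to 3 and at 0.888 to 3.60 CPM in KO. Of the 7 tested markers edgeR called 0, and at an unadjusted p under 0.05 Siglech, Ly6d and Tcf4 were lower and Runx2 higher in KO. Ly6d and Tcf4, also markers of B lineage cells and named after their values were seen, had groups that did not overlap: Ly6d was at 11.0, 10.9 and 119.6 CPM in WT replicates 1 to 3 and at 3.45 to 4.48 CPM in KO, and Tcf4 at 6.95, 7.53 and 55.5 CPM in WT replicates 1 to 3 and at 4.28 to 5.76 CPM in KO. The part of such cells in the Bst2 difference was not tested. WT replicate 3, with the most Siglech, had the least Bst2 of the WT libraries. Among the KO libraries, replicate 2 had the most and replicate 3 the least of both.

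Ifi27l2a belongs to the ISG12 family of small hydrophobic proteins induced by interferon. Its gene lies on chromosome 12 (103442167 to 103443680, minus strand, protein coding), between its relatives Ifi27 and Ifi27l2b. The values were 2123, 1620.3 and 1211 CPM in WT replicates 1 to 3 and 438, 689 and 484 CPM in KO replicates 1 to 3. The groups lay 1.76-fold apart, and Ifi27l2a fell by 1.62 on the log2 scale (SE 0.24 and adjusted p = 0.0246 by edgeR). Ifi27, which lies 1928 bases away, was not called, with 95.5 ± 15.5 CPM in WT against 119.9 ± 29.5 CPM in KO (SD, n = 3 each), a log2 fold change of 0.34 with SE 0.21 and adjusted p = 0.495 by edgeR. Ifi27l2b, on the other side, was at 7.53 ± 3.24 and 3.37 ± 1.04 CPM (log2 fold change -1.16, SE 0.51 and adjusted p = 0.316 by edgeR).

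Rtp4 is an interferon-induced member of the receptor transporter proteins, which help some G protein-coupled receptors reach the surface. It lies on chromosome 16 (23520291 to 23614222, plus strand, protein coding), where its annotated first part overlaps Masp1 on the opposite strand and the non-coding Gm45338 on its own, so reads could be shared. Rtp4 was at 147, 192 and 93.6 CPM in WT replicates 1 to 3 and at 19.9, 46.3 and 22.0 CPM in KO replicates 1 to 3. The nearest libraries were 2.02-fold apart, and Rtp4 fell by 2.28 on the log2 scale (SE 0.40 and adjusted p = 0.0437 by edgeR), the call nearest to the threshold. Its relatives Rtp1 and Rtp2 had 0 counts in every library and Rtp3 stayed under the filter.

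Per transcript length, the order of the levels was much the same in both groups. In RPKM (CPM per kilobase of the counted transcript), Ifi27l2a led with 3559 ± 985 in WT and 1157 ± 288 in KO (SD, n = 3 each). In WT it was followed by Bst2 (499 ± 115), Samhd1 (256 ± 49.4) and Zbp1 (202 ± 59.7), of which the last pair overlapped between libraries. Rtp4 (91.6 ± 31.2) and Apobec3 (90.6 ± 17.1) also overlapped, and Rsad2 (23.4 ± 2.16), Mx1 (15.3 ± 1.36) and Mx2 (11.1 ± 5.32) were lowest, Mx1 and Mx2 overlapping. In KO, Samhd1 (117 ± 18.8) and Bst2 (110.2 ± 31.0) came after Ifi27l2a and overlapped. Rsad2, Mx2 and Mx1 were again the lowest, at 3.63 ± 1.49, 2.14 ± 2.11 and 1.55 ± 1.15, each overlapping its neighbour in the order.

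Libraries of a group deviated in the same direction for most of the 9 genes. In KO, replicate 2 was the highest library for 8 of the 9, the exception being Apobec3, which was highest in KO replicate 1. Over the 10345 genes with a mean of at least 5 CPM, KO replicate 2 was highest for 34.9%. Relative to the WT mean, the 9 genes stood at a median of 32.1% in KO replicate 2 (17.6% to 54.0%), of 18.6% in replicate 1 and of 15.3% in replicate 3. In WT, replicate 3 was the lowest library for 8 of the 9, the exception being Rsad2, which was lowest in WT replicate 1. WT replicate 1 was highest for 6 of the 9 and WT replicate 2 for 3.

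**Figure D2:**
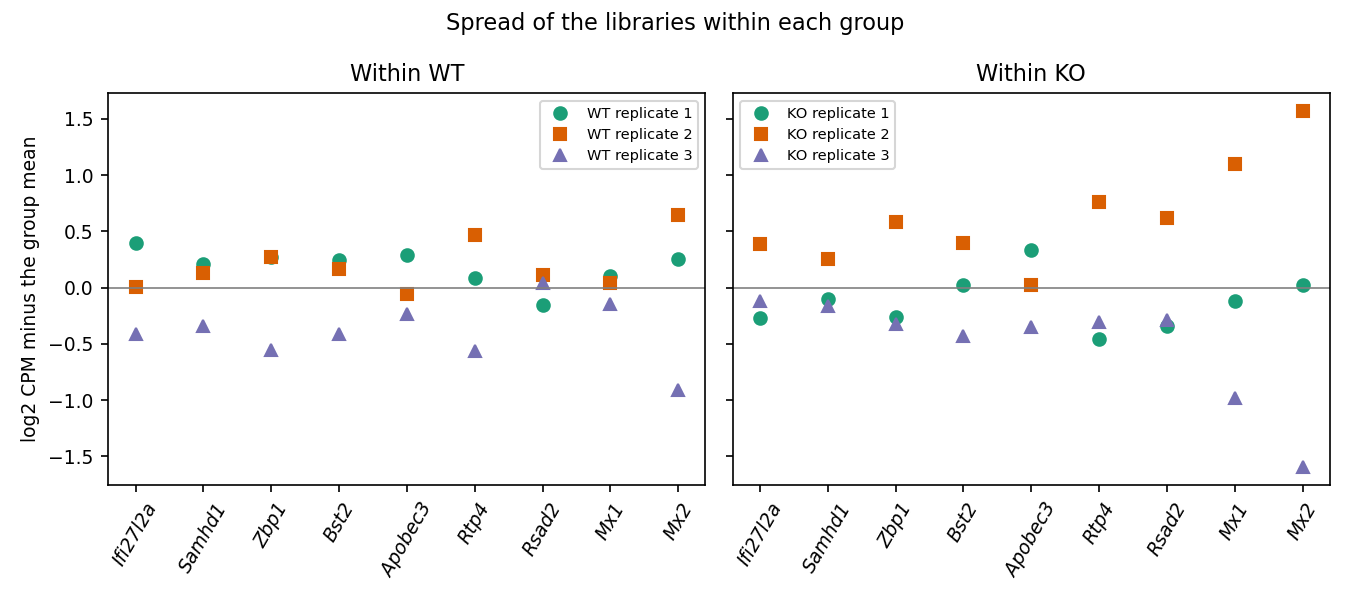
Log2 CPM of each gene minus its group mean, for the 3 WT libraries (left) and the 3 KO libraries (right); colours and shapes give the replicate. KO replicate 2 is above its group mean for all 9 genes and WT replicate 3 below its group mean for 8, with the widest spread in Mx2.

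The low values of WT replicate 3 went with a low share of T cell RNA. The 13 pan-T cell genes, such as Cd3e and Lck, took 0.459% of the counts in WT replicate 3, 0.736% and 0.797% in the other WT libraries and 0.830% to 0.932% in KO. Counted per 1000 reads of these genes, Samhd1 was at 149, 141 and 151 in WT replicates 1 to 3, and at 52.9, 72.0 and 46.5 in KO replicates 1 to 3. On the same scale Bst2 was at 56.6, 53.6 and 53.2 in WT and at 10.2, 14.1 and 6.85 in KO. WT replicate 3 was then the lowest WT library for 4 of the 9 genes instead of 8, and the groups stayed apart for all 9. How many of all genes stayed apart on this scale was not counted. Of the 13 scaling genes, 11 were higher in KO, 4 at an unadjusted p under 0.05 by edgeR and 0 called. Scaling to them therefore lowers KO values relative to WT. The spread within WT of Bst2 narrowed from 1.58-fold in CPM to 1.07-fold and that of Samhd1 from 1.46-fold to 1.07-fold, while that of Rsad2 widened from 1.20-fold to 1.70-fold. With edgeR scaled to these genes, 8 of the 9 were again called lower and the median log2 fold change was -2.48, with all tested genes at -0.34.

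Lung epithelial RNA also differed between libraries. All 10 markers were in the table, all 10 had lower values in KO, and edgeR called 0 of them (3 at an unadjusted p under 0.05). They took 8.06%, 1.77% and 2.24% of the counts in WT replicates 1 to 3 and 1.70%, 2.06% and 0.252% in KO replicates 1 to 3, so the groups overlapped. The club cell genes Scgb1a1 and Cbr2 made up most of it, and Cldn18 was at 0 in WT replicate 1. KO replicate 2, the KO library with the highest values of 8 of the 9 genes, had the largest epithelial share in KO. The median of the 9 genes was 32.1% of the WT mean in KO replicate 2, at a share of 2.06%. It was 18.6% in KO replicate 1 (share 1.70%) and 15.3% in KO replicate 3 (share 0.252%). WT did not follow the same order. The mean log2 CPM of the 9 genes, standardised per gene, was 1.02, 0.996 and 0.536 in WT replicates 1 to 3. In KO replicates 1 to 3 this mean was -0.958, -0.413 and -1.18. WT replicate 2 (share 1.77%) was above KO replicate 2 (share 2.06%) for all 9 genes. The part of epithelial RNA in these values was not tested. With this share as a covariate the 9 log2 fold changes ran from -0.99 to -3.11, 8 of the 9 had an unadjusted p under 0.05, and edgeR called Apobec3 alone (adjusted p = 0.0410), with 8 genes called in all.

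How many of the 9 genes were called depended on single libraries, although all 9 log2 fold changes were negative in each fit. With KO replicate 1, KO replicate 3 or WT replicate 2 left out, Apobec3 was the one gene called, and without WT replicate 1 the called genes were Apobec3, Bst2 and Rsad2. Without KO replicate 2 or WT replicate 3 there were 8. Over all genes edgeR called 4, 7 and 22 in the first 3 of these fits and 33 in the fourth, and 8 or 9 of the 9 genes had an unadjusted p under 0.05 in each of the 6 fits. Leaving out KO replicate 2 lowered the log2 fold change of Mx1 to -4.09 and that of Mx2 to -3.53, whereas Apobec3 moved only between -2.34 and -2.68 over the 6 fits.

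**Figure D3:**
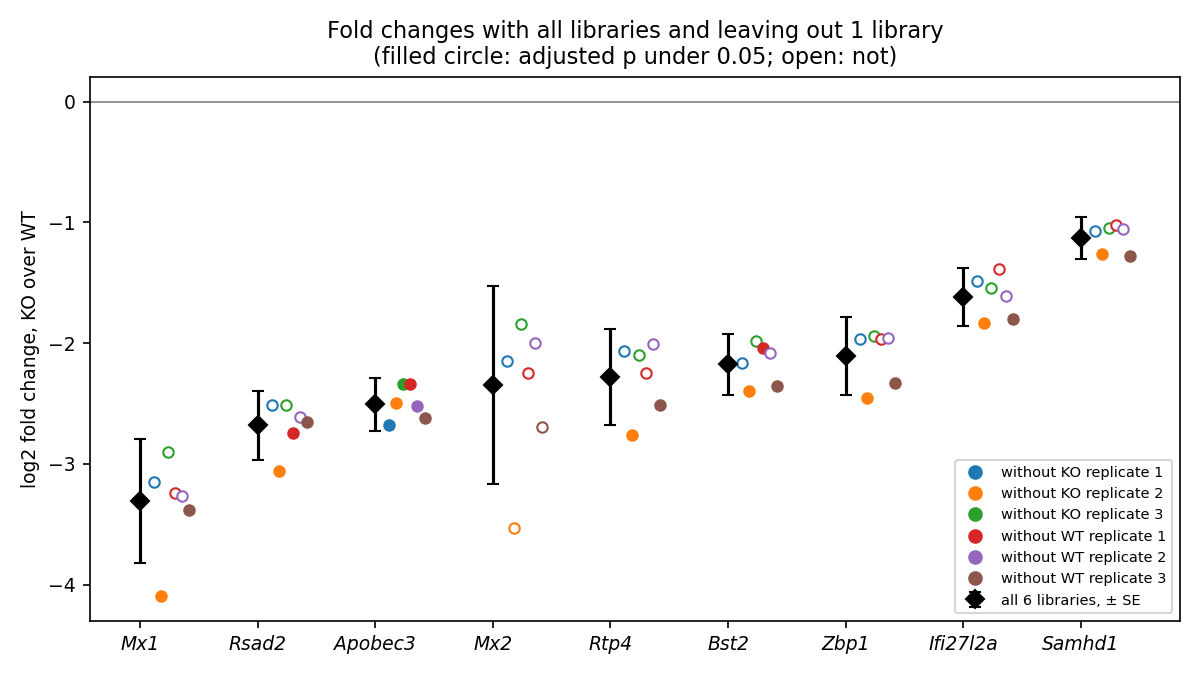
Log2 fold change, KO over WT, of each gene with all 6 libraries (black diamonds, bars are SE) and with 1 library left out (circles, filled where the adjusted p was under 0.05). All values are negative; Apobec3 is filled in all 6 fits and Mx2 in 0.

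Other antiviral genes were mostly lower as well. Of 33 listed genes, all tested, 30 were below WT in KO (median log2 fold change -1.60), and edgeR called 10 lower and 0 higher, with 27 lower and 0 higher at an unadjusted p under 0.05. Of 8 genes that act at viral entry or in the envelope, Ly6e was called, falling by 0.89 (SE 0.15 and adjusted p = 0.0305 by edgeR). Others of these genes are named here after their values were seen. Serinc3 and Serinc5, restriction factors of the retroviral envelope, had log2 fold changes of 0.03 (SE 0.14) and 0.17 (SE 0.28). Ifitm1, Ifitm2 and Ifitm3 were lower in KO but not called, at -3.30 (SE 0.75), -1.59 (SE 0.47) and -2.50 (SE 0.57). All were highest in WT replicate 3, the library with the most RNA of other blood cells. Ifitm1 was at 16.2, 6.16 and 61.7 CPM in WT replicates 1 to 3 and at 2.80 to 3.12 CPM in KO. Ifitm2 was at 75.0, 61.6 and 211 CPM in these WT replicates and at 34.5 to 46.6 CPM in KO. Ifitm3 was at 75.2, 104 and 294 CPM in WT and at 22.2 to 39.1 CPM in KO. Each of these Ifitm genes had an unadjusted p under 0.05 by edgeR.

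Of 14 genes that act on RNA or translation, 6 were called lower. Isg20, an exonuclease gene, was at 302, 310.0 and 211 CPM in WT replicates 1 to 3 and at 53.2, 88.0 and 55.5 CPM in KO replicates 1 to 3, without overlap (log2 fold change -2.06, SE 0.24 and adjusted p = 0.0119 by edgeR). Oas3, an enzyme switched on by double-stranded RNA, fell by 2.39 (SE 0.28) and Mov10, a helicase that restricts retroelements, fell by 1.60 (SE 0.24), both on the log2 scale. Oasl1, a relative of Oas3, was called as well, and so were Oas2 and Ifit2, named after their values were seen. Of 11 other interferon-induced genes, all lower, Isg15, Xaf1 and Irf7 were called, with log2 fold changes of -2.56 (SE 0.31), -1.74 (SE 0.25) and -1.96 (SE 0.34).

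Among the listed interferon signalling genes, which include the feedback inhibitor Socs1, some were called lower. Of 17 tested signalling genes, edgeR called 3 lower and 0 higher, with a median log2 fold change of -0.47. At an unadjusted p under 0.05 by edgeR, 5 were lower and 3 higher. Over all 12720 tested genes edgeR called 0.983% lower and 0.755% higher, and at an unadjusted p under 0.05, 1161 were lower and 857 higher. The interferon genes Ifna4 and Ifnb1, named for being the ligands, had 0 counts in every library, which allows up to 2.08 CPM in the shallowest one, and Ifng was at 8.18 ± 5.36 CPM in WT against 5.70 ± 2.32 CPM in KO (SD, n = 3 each). Stat2 was at 235, 211 and 172 CPM in WT replicates 1 to 3 and at 81.4, 94.8 and 77.6 CPM in KO replicates 1 to 3 (log2 fold change -1.28, SE 0.16 and adjusted p = 0.0131 by edgeR). Socs1, the feedback inhibitor of JAK kinases, fell by 1.12 (SE 0.18) on the log2 scale. The receptor genes Ifnar1 and Ifnar2 and the kinase gene Tyk2, chosen after their values were seen, were not called. Their log2 fold changes were positive, at 0.37 (SE 0.12), 0.45 (SE 0.16) and 0.45 (SE 0.15), each with an unadjusted p under 0.05. The transcription factor genes Irf1 and Irf9, chosen in the same way, were not called either and were lower in KO. Their log2 fold changes were -0.61 (SE 0.12) and -0.76 (SE 0.17), each with an unadjusted p under 0.05 by edgeR.

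Of the relatives and direct partners of the 9 genes described above, none was called by edgeR. Of 20 listed, 15 were tested, and 13 of these were lower in KO (median log2 fold change -0.29). EdgeR called 0, limma-voom 0 and DESeq2 3. Over all tested genes edgeR called 0.983% lower and 0.755% higher, so a count of 0 in 15 is near the share over all genes. At an unadjusted p under 0.05 by edgeR, 4 of the 15 were lower and 0 higher, while 9.13% of all tested genes were lower.

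**Figure D4:**
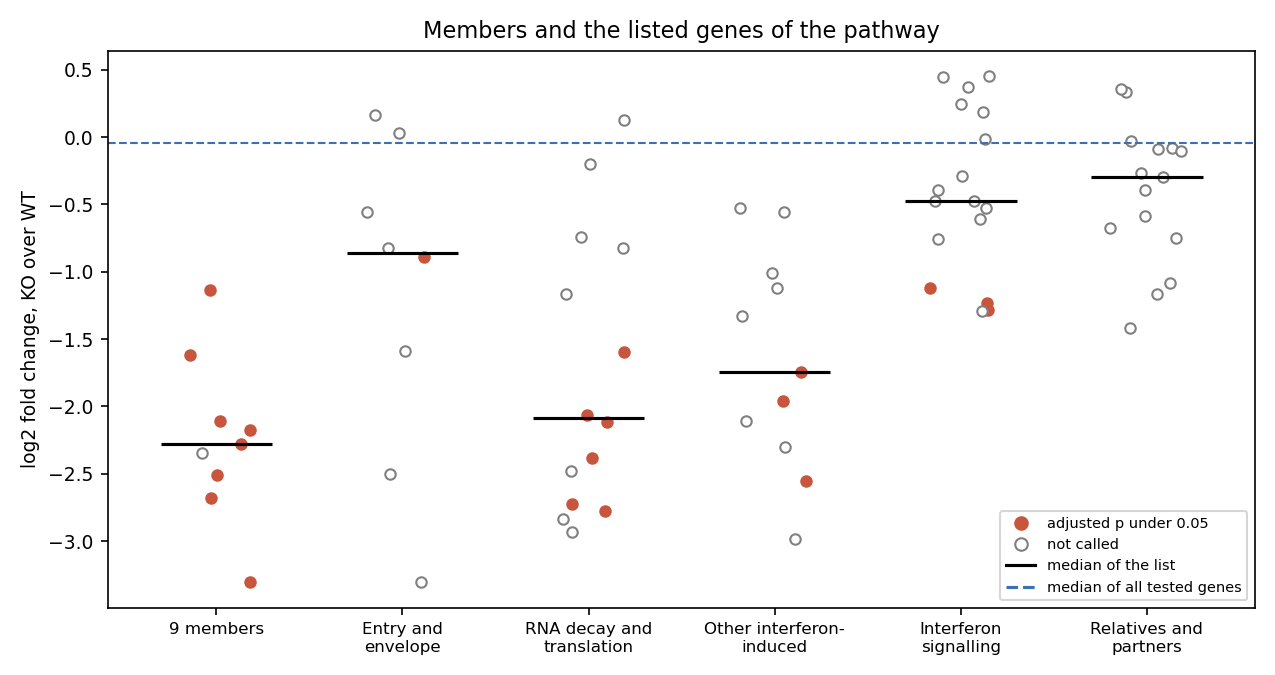
Log2 fold change, KO over WT, of the 9 genes and of the tested genes in 5 lists of the pathway; filled symbols had an adjusted p under 0.05, black lines are list medians and the dashed line is the median of all tested genes (-0.04). The medians run from -2.28 for the 9 genes to -0.29 for relatives and partners.

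The 5 genes whose log2 CPM followed the mean profile of the 9 most closely over the 6 libraries were Oas3 (Pearson r = 0.999), Isg15 (0.997), Tgtp1 (0.997), Lgals3bp (0.996) and Tgtp2 (0.996). Tgtp1 and Tgtp2 are near-identical GTPase genes whose reads cannot be assigned with certainty, and Lgals3bp encodes a secreted glycoprotein. These r values describe 6 libraries in 2 groups and mostly reflect the difference between the groups. Among the 9, each compared with the mean of the other 8, Bst2 had the highest r (0.996) and Mx2 the lowest (0.921).

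Other transcript rows of the same genes repeat reads of the row kept and are no independent measurement. Of the 9 genes, 6 had a second row. The second row of Apobec3 held 99.8% of the summed count of the kept one, that of Mx2 99.5%, of Samhd1 93.5% and of Mx1 91.0%. A shorter row of Zbp1 held 64.1% (60.9% to 70.2% by library) and a longer row of Ifi27l2a 59.4% (58.1% to 60.2% by library), so less than the kept row in every library. With the longest row per gene in place of the most counted one, 8 of the 9 were called lower.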

How the data were processed

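For 6 libraries the authors deposited a table of raw counts, 1 row per RefSeq transcript and its length, as its headers and values show. TopHat2 2.2.1, Bowtie2 2.2.6, bcl2fastq and build mm10 were used per the submitters' processing notes. The counting program, annotation release, strand handling and treatment of reads mapping to several places were not stated in any label or header. All 31682 rows named a gene (23992 symbols), and no sample column was left unused (0). The row of highest summed count was kept per symbol. Genes passed filterByExpr (minimum count 10, minimum total 15), which left 12720. The contrast of KO with WT came from a robust quasi-likelihood fit with TMM factors and its F-test (edgeR 4.0.16, R 4.3.3), with Benjamini-Hochberg adjustment over all tested genes. CPM are TMM-normalized. RPKM are these CPM per kilobase of the kept row. The SE of a log2 fold change is its absolute value divided by the square root of F. The test was tried on simulated counts, drawn independently for each gene and library. They held no effect shared by the genes of a library, such as RNA of other cells, so such effects were not covered. DESeq2 1.42.0, limma 3.58.1 (voom) and other settings were alternatives.

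The members and gene lists were chosen with earlier results of these data known. Named genes are the 9 members, Crlf2, Foxp3, per list up to 4 called genes of smallest p (or the 2 of smallest p where none was called), listed relatives and partners, the 2 most abundant markers per list, and the 5 genes most alike in pattern. Other genes are marked where they appear, and some listed genes are counted but not reported here. Depth ranged from 1439736 to 18352401 counts. The floor of 3 counts came to 2.08 CPM for the shallowest library (WT replicate 2) and to 0.163 to 0.376 CPM elsewhere, which covers counting error only. Positions are from GENCODE M21 and promoters from RefSeq on GRCm38.p6, both on mm10 coordinates.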

Additional observations from a re-analysis of the deposited data

How the results depend on the processing

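All 9 log2 fold changes stayed negative under each of the 16 alternatives, and the median of the 9 ran from -1.98 to -2.51. Apobec3 was called in all 16, Rsad2 and Bst2 in 12, Mx1, Zbp1, Ifi27l2a and Samhd1 in 11, Rtp4 in 10 and Mx2 in 1 (DESeq2). Leaving out 1 library gave 1 to 8 called members, 4 to 518 called genes in all, 0 to 15 other antiviral genes called lower, 0 to 5 signalling genes and 0 to 2 relatives and partners. With the share of lung epithelial markers in the model these counts were 1, 8, 0, 0 and 0. DESeq2 called 863 genes in all, 24 other antiviral genes, 5 signalling genes and 3 relatives and partners. Scaling to pan-T genes called 1 relative or partner. With the replicate number as a block (replicate block), edgeR called 123 genes in all and 8 of the 9 members. The numbers do not show a pairing: same-numbered KO and WT libraries had correlations of deviations of 0.08, -0.15 and -0.04, and not every library correlated best with its own number. Which cause lay behind these changes was not tested. Depth was lowest in WT replicate 2, which had 64 reads of Mx1 and 56 of Mx2.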
